A study of Rattus norvegicus with 12 samples.

Results

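The genes described here are those with which cells sense cytosolic iron and hand it on. They are the iron regulatory proteins Aco1 and Ireb2, their ubiquitin ligase subunit Fbxl5, the iron chaperones Pcbp1 and Pcbp2, the iron-sensing membrane proteins Hfe and Tfr2, and the endosomal ferrireductase Steap3. Every probe set whose single gene symbol in the platform annotation was 1 of these 8 was taken, which gave 10 probe sets of the 31042 on the array that are not controls. Pcbp2 had 3 probe sets and every other gene had 1. Expression was measured in mucosal scrapes of Belgrade rats, from duodenum and from jejunum, in 4 groups of 3 arrays. The b/b rats are homozygous for the Belgrade mutation of Slc11a2, the gene of the iron transporter DMT1, and are known to be anaemic. The +/b rats served as the comparison and carry 1 copy of the same mutation, so no group is free of it. Rats of each genotype formed 3 groups, and the design text assigns a group 1 array for either segment. An array therefore stands for a group of rats, whose number, age and sex the sources used here do not give.

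Iron regulatory proteins bind iron-responsive elements (IREs) in messenger RNAs when cytosolic iron is low, which slows the translation of ferritin and ferroportin and steadies the transcript of the transferrin receptor. Aco1 (IRP1) is a switch: with an iron-sulfur cluster it is the cytosolic aconitase, and without it binds RNA. Ireb2 (IRP2) has no cluster and is removed by the proteasome when iron is plentiful, through Fbxl5, which itself holds iron and is lost when iron or oxygen is scarce. Much of this control acts on proteins, which transcript arrays do not measure. Pcbp1 and Pcbp2 are RNA-binding proteins that also deliver ferrous iron to ferritin and other proteins. Hfe and Tfr2 report circulating transferrin iron, mainly in liver cells, where they raise hepcidin, and Steap3 reduces the iron released from transferrin in endosomes of red cell precursors.

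Signals are given in arbitrary units with the 2% trimmed mean of every array set to 500. For +/b duodenum replicates 2 and 3 this took factors of 9.69 and 3.95. Without it 55% of the 16555 probe sets then tested, and 6 member probe sets, passed between the segments of +/b rats. The other 10 arrays were deposited near that value. The median signal per array then lay between 108 and 182, and signals well below it are close to the noise of the array. Replicate 1 of b/b duodenum was least like the rest: its Spearman correlation with them had a median of 0.871, against 0.895 to 0.932. The enterocyte genes Fabp2 and Vil1 were bright in all groups, with group means from 40324 to 52946 and from 24024 to 29993. Of the marker lists for other cells, the summed signal of 9 erythroid genes of 16 listed did not overlap between the genotypes. In the duodenum the b/b arrays were at 12690 to 18070 and the +/b arrays at 2153 to 3672. In the jejunum they were at 10404 to 14505 and 2064 to 3127. Most of the sum was the globin gene Hbb. Its b/b and +/b group means were 14318 against 2716 in the duodenum and 11406 against 2208 in the jejunum. In the jejunum Slc4a1 (90.5 against 131) and Gata1 (59.7 against 67.8) were lower in b/b rats, and the rest of the list was higher. The summed signal of 11 exocrine pancreas genes of 13 was 158150 on the array of +/b duodenum replicate 2 and 7728 on that of b/b duodenum replicate 3, against 1110 to 1761 on the others.

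In the fit of all 12 arrays without pairing, 0 of the 9 tested member probe sets passed the threshold (limma, Benjamini-Hochberg adjusted p under 0.05 over 17694 probe sets) in any contrast. The shares of all probe sets called were 0.0396% for b/b against +/b in the duodenum and 0.0339% in the jejunum. They were 0.0565% for jejunum against duodenum in +/b rats, 0.763% in b/b rats and 0% for the difference of the genotype effects. At an unadjusted p under 0.05 the members numbered 1 in the duodenum and 1 in the jejunum for genotype, against 6.17% and 1.34% of all probe sets. For segment they numbered 2 in +/b and 3 in b/b rats, against 5.36% and 9.77%, and for the difference of genotype effects 1, against 1.73%. The clearest differences among the members lay between the segments. When the jejunum and duodenum arrays were compared within the groups of rats that supplied both, Aco1 and Fbxl5 passed the threshold in b/b rats, among 2.44% of all probe sets. Both calls were lost when any b/b rat group was left out. The Aco1 call was also lost with the rat group as a random effect. The tenth probe set, that of Tfr2, had a mean signal of 28.4, under the minimum of 100 for testing.

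**Figure D1:**
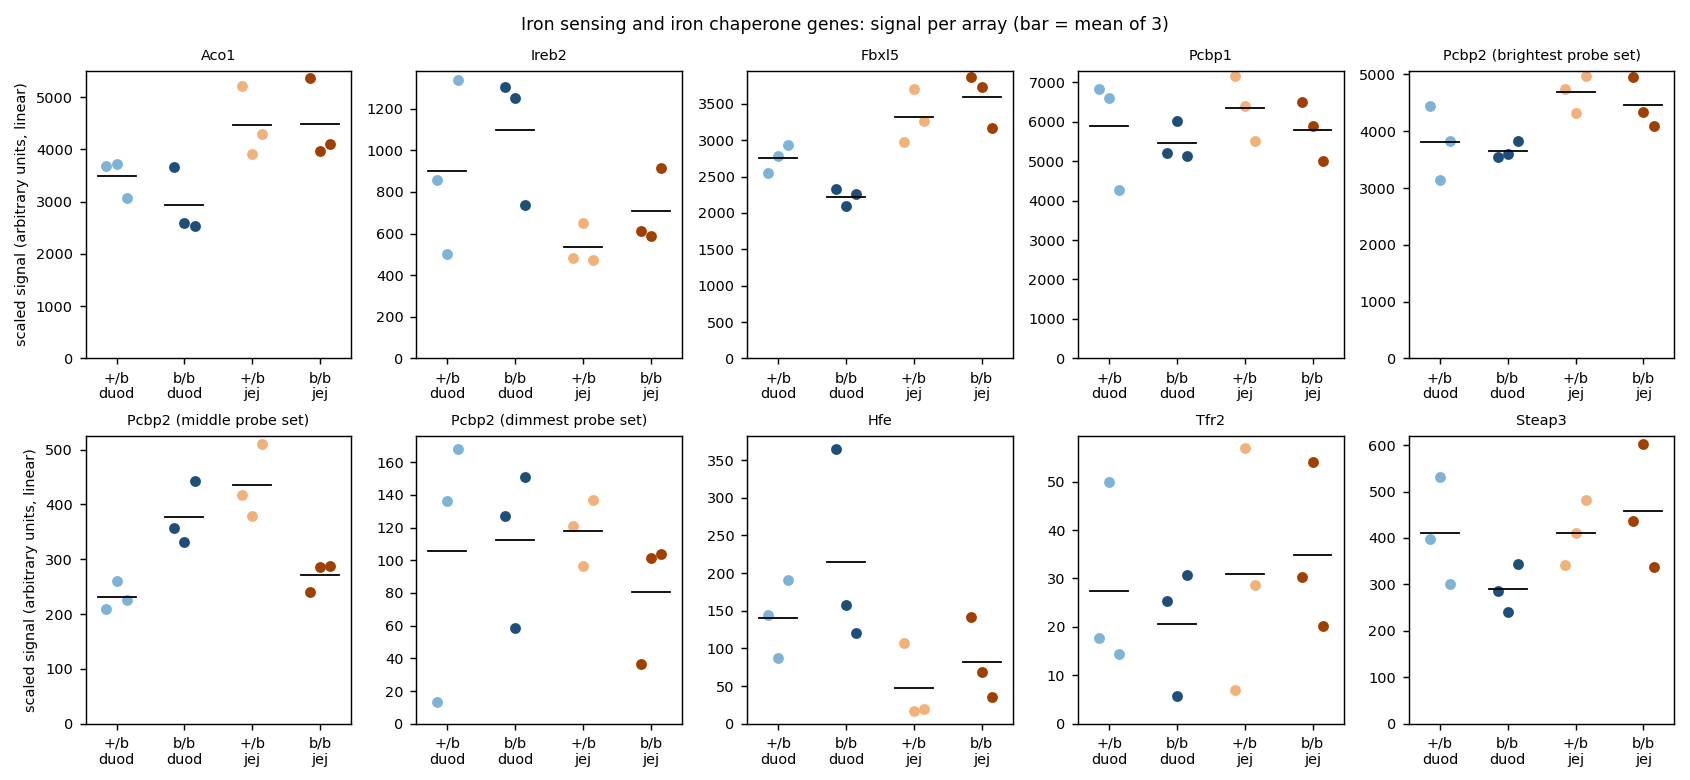
Scaled signal (linear, arbitrary units) of the 10 member probe sets on each of the 12 arrays, by genotype and segment (duod, duodenum; jej, jejunum), with a bar at the mean of 3 arrays. For Aco1 and Fbxl5 all 6 jejunum arrays lie above all 6 duodenum arrays, and the middle Pcbp2 probe set is high in b/b duodenum and +/b jejunum.

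Aco1 was higher in the jejunum than in the duodenum in both genotypes (probe set 1386916_at). The duodenum arrays gave signals of 3691, 3714 and 3072 in +/b rats and 3658, 2601 and 2528 in b/b rats. The jejunum arrays gave 5210, 3913 and 4290 in +/b and 5367, 3974 and 4101 in b/b rats. Every jejunum array was thus above every duodenum array, whereas the genotypes overlapped within each segment. The jejunum minus duodenum difference on the log2(signal + 16) scale was 0.62 ± 0.20 (SE, n = 3 per group, 95% interval 0.18 to 1.05) in b/b rats, or 1.53-fold, with limma adjusted p = 0.28. In +/b rats it was 0.35 ± 0.20 (-0.08 to 0.78, limma adjusted p = 0.941). The pairing by rat group narrowed the error in b/b rats to 0.13, and Aco1 then passed (limma adjusted p = 0.0355), among 2.44% of all probe sets that did so. With the rat group as a random effect the call was lost (limma adjusted p = 0.065). In these mixed tissue scrapes, fewer cells of a type and less RNA per cell cannot be told apart.

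Fbxl5, the iron-binding subunit through which Ireb2 is degraded, showed the same order of segments (probe set 1372776_at). Duodenal signals were 2550, 2778 and 2935 in +/b and 2328, 2090 and 2254 in b/b rats. Jejunal signals were 2977, 3705 and 3264 in +/b and 3867, 3735 and 3169 in b/b rats. The b/b duodenum was the lowest of the 4 groups and did not overlap with any other, the +/b duodenum came next, and the jejunum groups were highest and overlapped with each other. In b/b rats the jejunum exceeded the duodenum by 0.68 ± 0.16 (0.33 to 1.03), or 1.61-fold (limma adjusted p = 0.0912). When each jejunum array was paired with its duodenum array (replicate block), the error was 0.13 and limma gave an adjusted p = 0.0229. In +/b rats the difference was 0.26 ± 0.16 (-0.09 to 0.61), with limma adjusted p = 0.941 without the block and 0.519 with it; the block called 0.486% of all probe sets and 0 members in +/b rats. The genotype difference in the duodenum was -0.31 ± 0.16 (-0.65 to 0.04, limma adjusted p = 0.804), and in the jejunum it was 0.11 ± 0.16. The difference between these genotype effects, 0.42 ± 0.23, did not pass (limma adjusted p = 1, and 0.965 with the block, which called 0.0113% of all probe sets and 0 members).

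Both calls in b/b rats depended on having all 3 rat groups. When b/b rat group 1, 2 or 3 was left out of the paired fit, the limma adjusted p for Aco1 became 0.0939, 0.234 and 0.22, with differences of 0.65, 0.62 and 0.58. For Fbxl5 it became 0.0896, 0.234 and 0.0682, with differences of 0.66, 0.61 and 0.78. These fits called 2.28%, 0.571% and 0.938% of all probe sets. The size of the difference moved little while the call was lost each time. Arrays with the same replicate number resembled each other across genotypes as well: the enterocyte sum was highest on replicate 1 and lowest on replicate 3 in all 4 groups, at 426849 to 685836 over the replicate 1 arrays and 179240 to 270179 over the replicate 3 arrays. With the replicate number as a block over all 12 arrays, a fit added after the data were seen, Aco1 and Fbxl5 passed in b/b rats (limma adjusted p = 0.0284 and 0.021), among 2.25% of all probe sets. That fit called 0 members for genotype in duodenum and jejunum, for segment in +/b rats and for the difference of effects, against 0.0848%, 0.0452%, 0.401% and 0.017% of all probe sets. Summed over 10 macrophage genes of 10, b/b signals were 6103 to 10839 in the duodenum and 12763 to 25210 in the jejunum. In +/b rats they were 7851 to 16016 and 15716 to 31992, with overlap. Most of the sum was the lysozyme gene Lyz2, with group means of 5043 against 15760 in b/b and 7766 against 18352.5 in +/b rats. In b/b rats Cd163 (119 against 59.5) and Aif1 (268 against 246) were lower in the jejunum. The rest of the list was higher there, Adgre1 at 46.2 against 62.6. The part of macrophages in the Aco1 and Fbxl5 differences was not tested.

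Ireb2 had the opposite order of segments, with more spread between arrays (probe set 1387440_at). Its duodenal signals were 856, 504 and 1340 in +/b and 1306, 1252 and 738 in b/b rats, and its jejunal signals 481, 649 and 474 in +/b and 614, 587 and 917 in b/b rats. All neighbouring groups overlapped. Jejunum minus duodenum was -0.64 ± 0.33 (-1.34 to 0.06) in +/b and -0.61 ± 0.33 (-1.31 to 0.09) in b/b rats, with limma adjusted p = 0.934 and 0.593. The jejunum was lower in 4 of the 6 rat groups. In b/b rats Ireb2 had 0.35 ± 0.33 in the duodenum and 0.38 ± 0.33 in the jejunum relative to +/b, with limma adjusted p = 0.893 and 1. The duodenal genotype difference was -0.01 without +/b duodenum replicate 2 and 0.68 without +/b duodenum replicate 3, so single arrays set its size.

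The promoter windows of these 3 sensor genes are shown because Aco1 and Fbxl5 were both higher in the jejunum and Ireb2 was not. RefSeq promoter sequences (build GRCr8) were found for 7 of the 8 genes, and the 250 bases before the annotated start are printed 5′ to 3′ on the gene's strand. Capitals mark the core of the hypoxia response element, ACGTG or GCGTG on either strand.
Aco1, chr5:60055645-60055894, plus strand: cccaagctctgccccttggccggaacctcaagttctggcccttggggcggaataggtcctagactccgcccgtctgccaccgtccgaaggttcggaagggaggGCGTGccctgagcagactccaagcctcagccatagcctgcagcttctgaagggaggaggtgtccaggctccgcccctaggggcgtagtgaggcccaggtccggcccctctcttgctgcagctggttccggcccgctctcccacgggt
Fbxl5, chr14:71521349-71521598, plus strand: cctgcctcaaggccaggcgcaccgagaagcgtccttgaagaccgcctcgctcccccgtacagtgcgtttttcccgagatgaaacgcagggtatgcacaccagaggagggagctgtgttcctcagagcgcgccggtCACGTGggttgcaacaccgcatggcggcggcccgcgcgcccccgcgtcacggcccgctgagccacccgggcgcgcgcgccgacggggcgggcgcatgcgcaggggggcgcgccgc
Ireb2, chr8:64160838-64161087, plus strand: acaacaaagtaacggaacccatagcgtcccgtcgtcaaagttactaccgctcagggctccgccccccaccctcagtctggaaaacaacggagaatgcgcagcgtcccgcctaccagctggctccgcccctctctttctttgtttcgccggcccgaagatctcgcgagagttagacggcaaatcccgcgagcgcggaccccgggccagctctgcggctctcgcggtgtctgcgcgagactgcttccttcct
For Fbxl5 and Ireb2 the RefSeq gene record begins upstream of this window, so the annotated start is not the only one.

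In the Fbxl5 window the capitals form CACGTG, which holds ACGTG on both strands and is also the E-box read by several helix-loop-helix factors. ACGTG occurs in 16.6% and CACGTG in 5.59% of the 33469 RefSeq promoter windows of this length. The Aco1 window holds 1 GCGTG, a motif of 25.9% of windows, and the Ireb2 window neither core. The window of Pcbp1, whose segment differences were 0.13 and 0.09, holds 3 ACGTG, 2 GCGTG and 1 CACGTG. Those of Pcbp2 and Tfr2 hold 1 GCGTG each. Whether the cores bear on the segment differences was not tested. The GC box GGGCGG, in 30.5% of windows, occurs 3 times in Aco1, 2 times in Ireb2 and 1 time in Fbxl5. These are matches of letters and do not show that a factor binds.

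The chaperone Pcbp1 differed little between the groups (probe set 1374385_at). Signals were 6826, 6591 and 4258 in +/b duodenum, 5204, 6013 and 5129 in b/b duodenum, 7151, 6388 and 5523 in +/b jejunum and 6513, 5889 and 5004 in b/b jejunum. Neighbouring groups overlapped in every case. The 4 contrasts between groups gave -0.08 ± 0.21 and -0.13 ± 0.21 for genotype in duodenum and jejunum and 0.13 ± 0.21 and 0.09 ± 0.21 for segment in +/b and b/b rats. The 95% interval for genotype was -0.54 to 0.37 in the duodenum and -0.58 to 0.32 in the jejunum.

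Pcbp2 was read by 3 probe sets that did not give the same picture. On the brightest (1398941_at), signals were 4452, 3134 and 3832 in +/b duodenum, 3541, 3608 and 3834 in b/b duodenum, 4745, 4330 and 4975 in +/b jejunum and 4955, 4331 and 4089 in b/b jejunum. The jejunum was higher in all 6 rat groups, by 0.31 ± 0.17 in +/b and 0.28 ± 0.17 in b/b rats (limma adjusted p = 0.941 and 0.677). Genotype made differences of -0.04 ± 0.17 and -0.07 ± 0.17.

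The middle Pcbp2 probe set (1390372_at) crossed over between the segments. Signals were 210, 261 and 225 in +/b duodenum against 357, 331 and 442 in b/b duodenum, and 417, 378 and 510 in +/b jejunum against 241, 286 and 288 in b/b jejunum. In the duodenum the b/b arrays were thus above, and in the jejunum below, all +/b arrays of the segment. The genotype difference was 0.66 ± 0.22 (0.18 to 1.14) in the duodenum and -0.64 ± 0.22 (-1.12 to -0.16) in the jejunum, with limma adjusted p = 0.762 and 1. The difference between the 2 effects was -1.30 ± 0.32 (-1.98 to -0.62). It ranked number 6 of 17694 by unadjusted p (limma unadjusted p = 0.0011), yet its adjusted p was 1 over all probe sets, and 0.965 once rat groups were paired. With 1 array left out it lay between -1.39 and -1.18. On the brightest probe set the same quantity was -0.03 ± 0.25. The dimmest (1395792_at) had the signs of the middle one with wider errors: b/b minus +/b was 0.37 ± 0.65 in the duodenum and -0.55 ± 0.65 in the jejunum, and the difference of the effects -0.93 ± 0.92. The duodenal sign rested on +/b duodenum replicate 1, at 13.3 against 136 and 168 on the other +/b duodenum arrays. With 1 array left out, the duodenal difference lay between -0.47 and 0.86. Signals of the dimmest probe set ranged from 13.3 to 168 over the 12 arrays, and its groups overlapped in every contrast.

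The genes of transferrin iron sensing were dim in these scrapes. Hfe (probe set 1370772_a_at) had signals of 144, 87.1 and 190 in +/b duodenum, 365, 158 and 120 in b/b duodenum, 107, 16.9 and 19.4 in +/b jejunum and 142, 69.2 and 35.3 in b/b jejunum. It was lower in the jejunum than in the duodenum in all 6 rat groups, which 4.85% of all probe sets showed, although the groups overlapped. Hfe reached the minimum mean signal for testing only through the duodenum arrays, with group means of 141 in +/b and 214 in b/b rats. The jejunum means, 47.9 in +/b and 82.2 in b/b rats, were under that minimum. The count over rat groups and the segment tests therefore cannot separate a lower jejunum from this selection. Jejunum minus duodenum was -1.52 ± 0.62 (-2.86 to -0.19) in +/b and -1.24 ± 0.62 (-2.57 to 0.10) in b/b rats, with limma adjusted p = 0.883 and 0.562. The genotype differences, 0.47 ± 0.62 in the duodenum and 0.76 ± 0.62 in the jejunum, had intervals on both sides of 0. Tfr2 lay between 5.75 and 56.9 on every array (probe set 1380066_at), with group means from 20.6 ± 13.1 (SD, n = 3) in b/b duodenum to 34.8 ± 17.3 in b/b jejunum, and no order among the groups beyond their spread.

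Steap3 had its lowest mean in b/b duodenum (probe set 1370374_at). Signals there were 285, 240 and 343, against 397, 532 and 302 in +/b duodenum, 341, 410 and 481 in +/b jejunum and 438, 602 and 338 in b/b jejunum. All groups overlapped. The b/b rats had -0.46 ± 0.27 (-1.05 to 0.13) in the duodenum relative to +/b and 0.13 ± 0.27 in the jejunum, with limma adjusted p = 0.818 and 1. Jejunum minus duodenum was 0.61 ± 0.27 (0.02 to 1.20) in b/b rats (limma adjusted p = 0.483) and 0.02 ± 0.27 in +/b rats. The summed erythroid signal, most of it Hbb, was higher on the b/b arrays, and Steap3, a gene of red cell precursors, had no call for genotype. The part of red cell precursors in its values was not tested.

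**Figure D2:**
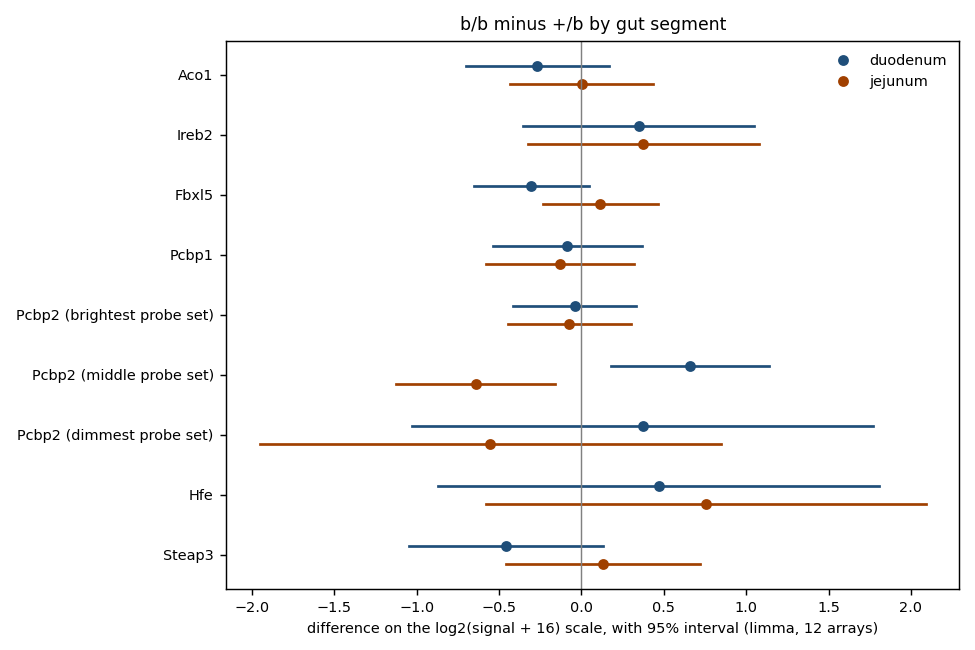
Difference between b/b and +/b rats on the log2(signal + 16) scale for the 9 tested member probe sets, with the limma 95% interval, in duodenum (blue) and jejunum (brown). Only the intervals of the middle Pcbp2 probe set exclude 0, on opposite sides in the 2 segments (0.66 and -0.64), and none passed after adjustment.

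The members had no call for genotype in either segment. Their median difference was -0.04 in the duodenum and 0.00 in the jejunum, against -0.05 and -0.03 over all probe sets. Groups that did not overlap were found for 2 of 9 probe sets in the duodenum, Fbxl5 lower and the middle Pcbp2 probe set higher in b/b, against 8.7% of all probe sets. In the jejunum it was 1 of 9, the middle Pcbp2 probe set, against 7.9%. Between segments, 3 of 9 did not overlap in +/b rats and 4 of 9 in b/b rats, against 10.8% and 14.8%. Aco1, Fbxl5 and the middle Pcbp2 probe set were in both counts, the last of them in opposite directions, and the brightest Pcbp2 probe set in the second.

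The effect of segment over both genotypes was fitted after the data had been seen. Averaged over genotypes, jejunum minus duodenum was 0.48 ± 0.14 for Aco1, 0.47 ± 0.12 for Fbxl5, 0.29 ± 0.12 for the brightest Pcbp2 probe set, -0.63 ± 0.23 for Ireb2 and -1.38 ± 0.44 for Hfe. These 5 of 9 had an unadjusted p under 0.05, against 12.4% of all probe sets, and 0 passed after adjustment, with 1.4% of all probe sets called and Fbxl5 nearest (limma adjusted p = 0.064). With rat groups paired, Aco1 (limma adjusted p = 0.0154) and Fbxl5 (0.0175) passed, among 4.49% of all probe sets, and Hfe had 0.056. With the rat group as a random effect, 4.02% of all probe sets and 3 members passed, Hfe with them (limma adjusted p = 0.046), and with array weights 3.36% and 1 member. Hfe reached the minimum signal for testing only through the duodenum arrays, as given above. With the replicate number as a block 4.01% and 2 members passed, and quantile normalization and a minimum signal of 200 called 1.64% and 2.12%, Fbxl5 each time. In b/b rats alone, treating rat groups as random called 1.98% of all probe sets and 1 member. Array weights called 3.63% and 2 members in b/b rats. Aco1 kept the call without +/b rat group 2 or 3 or b/b rat group 1, and Fbxl5 without +/b rat group 3 or b/b rat group 1 or 3. The fits without +/b rat group 1, 2 and 3 called 2.23%, 2.79% and 3.87% of all probe sets, and those without b/b rat group 1, 2 and 3 called 4.27%, 1.75% and 2.46%. In the fits that left out 1 rat group and lost a call, the limma adjusted p lay between 0.0625 and 0.0718 for Aco1 and between 0.055 and 0.0987 for Fbxl5.

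**Figure D3:**
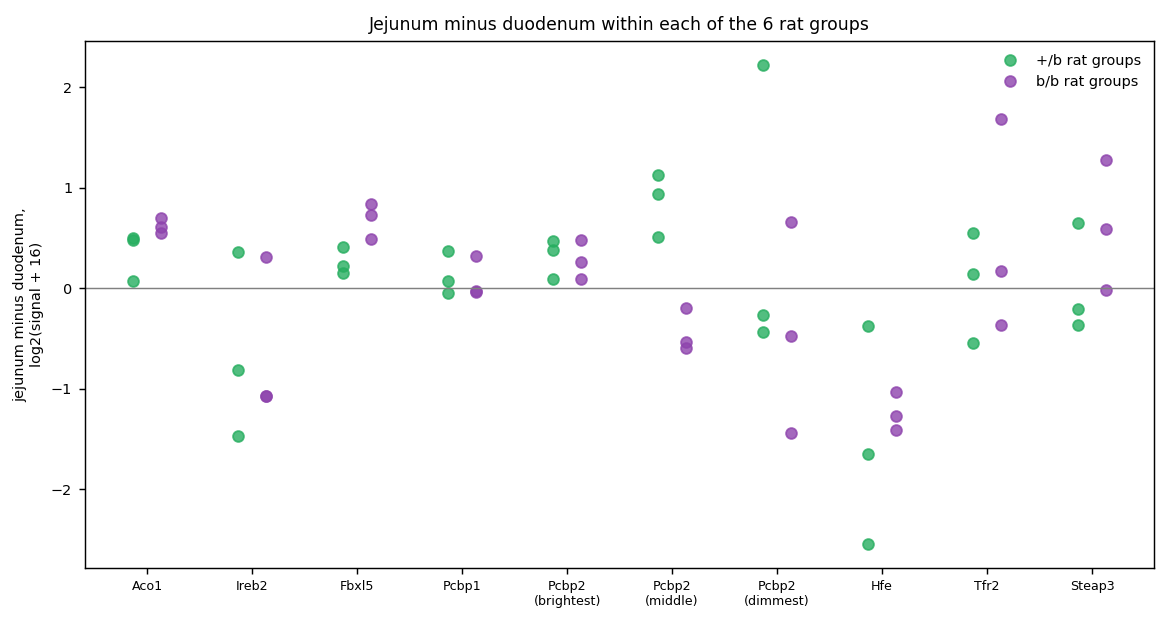
Jejunum minus duodenum within each of the 6 rat groups (3 +/b, green; 3 b/b, purple) on the log2(signal + 16) scale, for the 10 member probe sets. Points above 0 are higher in the jejunum: all 6 for Aco1 (0.07 to 0.69), Fbxl5 (0.15 to 0.83) and the brightest Pcbp2 probe set (0.09 to 0.48), none for Hfe.

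Within rat groups, Aco1 had differences of 0.50, 0.07 and 0.48 in +/b and 0.55, 0.61 and 0.69 in b/b rats. Fbxl5 had 0.22, 0.41 and 0.15 in +/b and 0.73, 0.83 and 0.49 in b/b rats. The b/b differences did not overlap with the +/b differences for 3 of 9 tested probe sets, above them for Aco1 and Fbxl5 and below for the middle Pcbp2 probe set, against 9.72% of all probe sets. The test of that difference did not pass (0.27 ± 0.29 for Aco1, limma adjusted p = 1). Being higher in the jejunum of all 6 rat groups was shared by 7.73% of all probe sets, while having every jejunum array above every duodenum array, as Aco1 and Fbxl5 did, was shared by 0.882%. The middle Pcbp2 probe set was higher in the jejunum in all 3 +/b groups (0.94, 0.51 and 1.12) and lower in all 3 b/b groups (-0.54, -0.20 and -0.59).

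Partner genes of these proteins were described by lists of known targets and binding partners. Of 12 transcripts listed for IREs, Hif1a included as the relative of Epas1, 8 were tested. In b/b duodenum 0 were called, with a median of 0.90 against -0.05 over all probe sets, and 6 had an unadjusted p under 0.05. The iron transporter Slc11a2 had 2.63 ± 0.55, the erythroid heme synthesis enzyme Alas2 2.35 ± 0.41 and the transferrin receptor Tfrc 1.35 ± 0.25, each without overlap (limma adjusted p = 0.312, 0.105 and 0.134). The oxygen-responsive factor Epas1 (HIF-2 alpha) had 0.95 ± 0.37, whereas Hif1a had -0.81 ± 0.25 and the kinase Cdc42bpa -0.92 ± 0.39 (limma adjusted p = 0.789, 0.702 and 0.789). In b/b jejunum Alas2 was the 1 of 8 called, with 2.63 ± 0.41 (limma adjusted p = 0.047), and the list's median was 0.07. Its genotype effects in the segments differed by 0.27 ± 0.57 (limma adjusted p = 1). The summed erythroid signal was higher on the b/b arrays of both segments, as given above, and its part in the Alas2 values was not tested.

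Between the segments of b/b rats, 3 of the 8 tested genes on the IRE list, Hif1a among the 8, were lower in the jejunum and 0 higher by the test. The 3 were Slc11a2 (-4.25 ± 0.55, limma adjusted p = 0.00184), the iron exporter Slc40a1 (-3.41 ± 0.46, limma adjusted p = 0.00246) and Epas1 (-2.11 ± 0.37, limma adjusted p = 0.0153). Hif1a had 1.08 ± 0.25 in the other direction (limma adjusted p = 0.0797). In +/b rats 0 were called, with -2.61 ± 0.55 for Slc11a2, -2.38 ± 0.46 for Slc40a1 and -1.17 ± 0.37 for Epas1 (limma adjusted p = 0.16, 0.112 and 0.693). The list's median was -0.39 in +/b and -0.38 in b/b rats, against 0.05 and 0.07 over all probe sets.

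**Figure D4:**
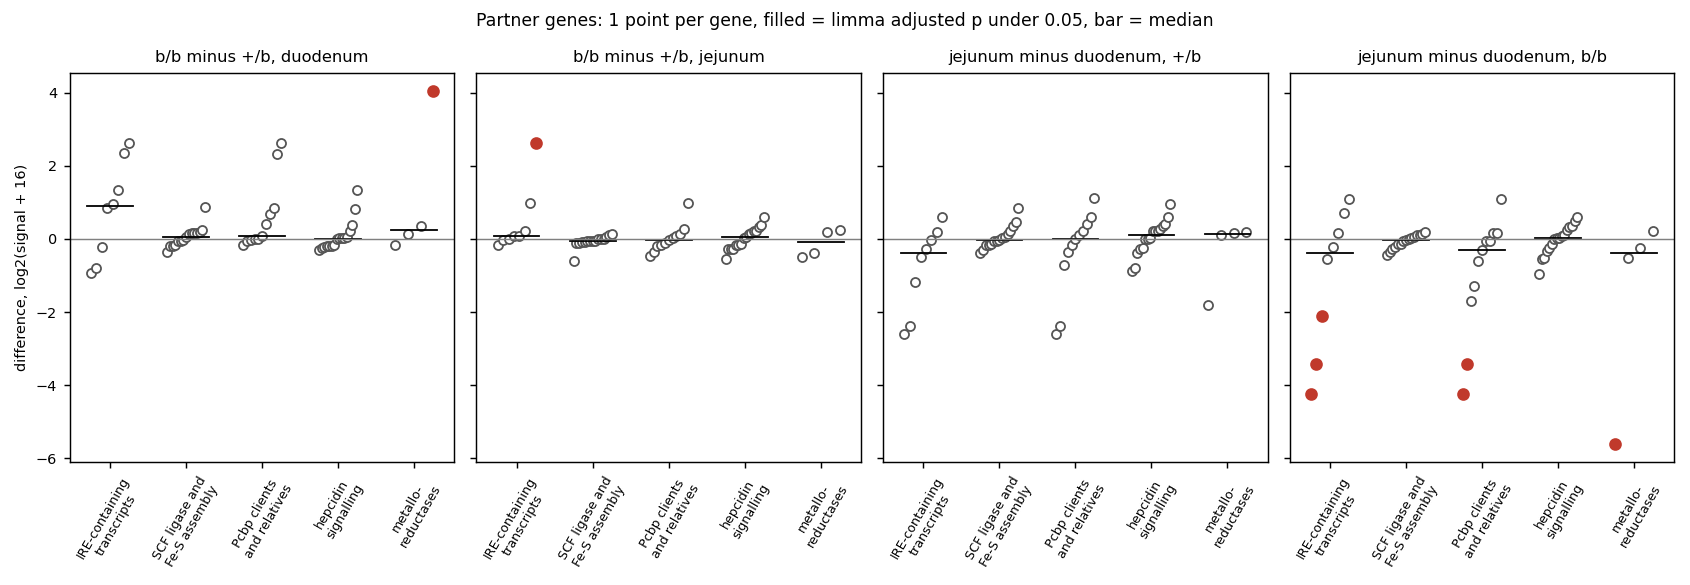
Differences on the log2(signal + 16) scale for the tested genes of 5 partner lists in the 4 contrasts, 1 point per gene, filled where the limma adjusted p is under 0.05, with a bar at the list's median. The filled points are Cybrd1 (4.05 in b/b duodenum and -5.61 between the segments of b/b rats), Alas2 in b/b jejunum (2.63), and Slc11a2, Slc40a1 and Epas1 between the segments of b/b rats; open points as far from 0 include Slc11a2 (2.63), Alas2 (2.35) and Ncoa4 (2.31) in b/b duodenum.

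Around Fbxl5 and Aco1, 15 of 16 listed genes of the SCF ubiquitin ligase and of iron-sulfur cluster assembly were tested, and 0 were called in any contrast. Their medians lay between -0.05 and 0.05 in the 4 contrasts between groups. The ligase subunits Skp1 and Cul1, with which Fbxl5 works, had -0.05 ± 0.17 and 0.10 ± 0.27 for jejunum minus duodenum in b/b rats. The smallest p in the duodenum was that of Herc2, an E3 ligase that targets Fbxl5, with 0.86 ± 0.36 in b/b (limma adjusted p = 0.789) and no overlap between the groups.

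Of 15 names listed as clients and relatives of Pcbp1 and Pcbp2, 11 were tested. Phd2 and Egln1 on that list name the same gene, which was tested as Egln1. The 2 calls, both lower in the jejunum of b/b rats, were Slc11a2 and Slc40a1, which are also on the IRE list. Ncoa4, the receptor that sends ferritin to the lysosome, had 2.31 ± 0.93 in b/b duodenum without overlap (limma adjusted p = 0.789). Pcbp3, a relative of the chaperones, had 1.13 ± 0.40 and 1.09 ± 0.40 for jejunum minus duodenum in +/b and b/b rats (limma adjusted p = 0.737 and 0.339).

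Of 19 genes of hepcidin signalling around Hfe and Tfr2, 16 were tested and 0 called in the 4 contrasts between groups. In b/b duodenum the smallest p was that of Tfrc, which is on this list too, followed by the ligand Bmp6 with 0.83 ± 0.38 (limma adjusted p = 0.789), and the hepcidin gene Hamp had -0.30 ± 0.45. For jejunum minus duodenum the receptor Acvr1 had 0.97 ± 0.24 in +/b rats and 0.49 ± 0.24 in b/b rats (limma adjusted p = 0.334 and 0.53). Averaged over genotypes it had 0.73 ± 0.17, the 1 call on the list (limma adjusted p = 0.04996). The ligand Bmp2 had -0.97 ± 0.37 in b/b rats (limma adjusted p = 0.373). Hamp group means lay between 83.5 and 159, and the summed signal of the 7 hepatocyte markers between 432 and 3795. Of the 7 metalloreductases and relatives of Steap3, 4 were tested, and Cybrd1, the duodenal ferric reductase, was called in b/b duodenum (4.05 ± 0.41, limma adjusted p = 0.00112) and for jejunum minus duodenum in b/b rats (-5.61 ± 0.41, limma adjusted p = 1.78e-05). The other 3 tested were Cyb561, Cyb561d2 and Frrs1, none of them called. Steap1, Steap2 and Steap4 were under the minimum signal.

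Over the 12 arrays, the genes whose log2 signals followed Aco1 most closely were Slc25a36 (Pearson r = 0.945), Cubn, the receptor of vitamin B12 uptake (0.935), and Aldh1b1 (0.933). Those nearest Fbxl5 were Eppk1 (0.94), the folate receptor Folr1 (0.938) and Pon3 (0.928). Nearest to Ireb2 were Eapp (0.879), Oxct1 (0.871) and Kctd9 (0.869), and to Hfe, Aprt (0.953), Zfyve1 (0.9) and Ankrd9 (0.892). For Pcbp1 they were Col18a1 (0.89), LOC100911177 (0.887) and Arhgef1 (0.886), for the brightest Pcbp2 probe set Zfp11 (0.927), Rasd2 (0.925) and Gpnmb (0.924), and for Steap3 Slc16a7 (0.89), Sec63 (0.851) and Pakap (0.849). Each is the best 3 of about 13500 probe sets over arrays that share segment, genotype and scaling, so the values describe likeness on these arrays.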

How the data were processed

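RNA of duodenal and jejunal scrapes from 3 rat groups per genotype was hybridised to 12 arrays. Per the labels, extraction used Trizol and a column kit. The authors deposited 1 linear signal intensity for each probe set. The submitters' processing notes list MAS5 with 10 arrays of 12; its version is not given in the sources used here. Each array was scaled to a 2% trimmed mean of 500. Control probe sets (57) were left out, and 17694 probe sets, those whose scaled signal averaged 100 or more, were tested on log2(signal + 16), which understates changes of dim genes. Group means over all 12 arrays were fitted with limma 3.58.1 (R 4.3.3, eBayes with an intensity trend), two-sided, with Benjamini-Hochberg adjustment over all tested probe sets and a threshold of 0.05. Errors are standard errors of the fit unless marked SD. Differences on this scale are given as log2 values.

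Jejunum and duodenum arrays of 1 genotype and number come from the same rat group in the series design. Their deviations from the group means correlated at 0.19 to 0.28 in +/b and 0.16 to 0.38 in b/b rats, and a fit with the rat group as a block was an alternative. Same-numbered arrays of different rats correlated as much between the jejunum groups (0.12 to 0.42) and between b/b duodenum and +/b jejunum (0.14 to 0.45). They correlated less between the duodenum groups (-0.06 to 0.16) and between +/b duodenum and b/b jejunum (0.03 to 0.26). A correlation of this size was thus also seen without a shared rat group, though not in every pair of groups. The pairing rests on the design text. The p-values of the unpaired fit measure the spread between the arrays of a group, each from its own rat group. Those of the fit with the rat group as a block measure the spread of the segment difference between rat groups. The number of arrays limits the precision.

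The members and gene lists were chosen with earlier results of these data known. All 10 member probe sets are reported. Of each partner list, up to 4 genes with the smallest p in the contrast described and those called are named, with Cdc42bpa and Epas1 to complete a count, and Skp1, Cul1 and Hamp added for their role after their values were seen. Genes most like a member are the 3 of highest Pearson correlation. The unpaired fit was tested on simulated data. It recovered a log2 change of 1 in 26.6% of cases for genotype in the duodenum and 28.8% in the jejunum. For segment it recovered 22.7% in +/b and 23.2% in b/b rats, and for the difference of genotype effects 5.88%. An absent call thus does not show that a change of that size is absent.
Alternatives were the signals as deposited, other pseudocounts, filters and normalizations, array weights, blocks, and leaving out arrays or rat groups. The averaged segment effect, the paired fits without a rat group and the block on the replicate number over all arrays were added after the data were seen.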

Additional observations from a re-analysis of the deposited data

How the results depend on the processing

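The count of member probe sets called was 0 without pairing in each contrast, and it moved in these cases. For jejunum against duodenum in b/b rats it was 2 with the rat group as a replicate block, 1 with that block random (Fbxl5, limma adjusted p = 0.0153) and 2 with array weights (Aco1 0.0391 and Fbxl5 0.012) or with the replicate number as a block over all arrays, added later. Averaged over genotypes, a contrast added after the data were seen, it was 2 with either replicate block, 3 with it random (Aco1 0.0272, Fbxl5 0.0119 and Hfe 0.046), and 1, Fbxl5, with array weights, quantile normalization or a minimum signal of 200. Hfe was tested only because of its duodenum signals, so its call cannot be separated from the minimum signal for testing. Leaving out 1 array gave 0 in every contrast, and leaving out 1 rat group from the paired fit, added likewise, gave 0 for each genotype and 0 to 2 for the average. For the average, the fits without a rat group called 1.75% to 4.27% of all probe sets. With the signals as deposited, 6 were called for segment in +/b rats. There the arrays deposited at another scale shift the median of the 16555 probe sets tested by 1.62, and 55% of them are called. The replicate number as a block within a segment, and the paired fit in +/b rats and of the difference of genotype effects, changed no call. Over 1188 comparisons of a member's log2 change with an alternative, 29 gained a call, 0 reversed a called change and 71 changed sign without a call. The 2 arrays deposited at another scale and the dim signals of Hfe, Tfr2 and the dimmest Pcbp2 probe set limit what can be read from them.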
